A study of Saccharomyces cerevisiae with 6 samples.

Results

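The genes described are the 10 histone genes HTA1, HTA2, HTB1, HTB2, HHT1, HHT2, HHF1, HHF2, HHO1 and HTZ1 of the budding yeast Saccharomyces cerevisiae. They were chosen by gene symbol and make up 10 of the 5650 named genes on the arrays. Each had 1 probe. RNA of 6 cultures was measured, 3 grown without added ethanol and 3 with 6.5% (v/v) ethanol, to ask how transcript levels differ under ethanol stress. All cultures were of the haploid laboratory strain W303-1A, mating type MATa, with the alleles ade2-1, can1-100, trp1-1, his3-11, 15, leu2-3, 122 and ura 3-1. They grew at 30 °C with shaking in YEPD, a rich glucose medium, and each was a separate culture inoculated from unstressed cells in late exponential phase. How long the cells grew in ethanol is not stated in the labels.

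Histones are the proteins around which DNA is wound. H2A, H2B, H3 and H4 are the core histones of the nucleosome, and in budding yeast each is encoded by a pair of genes. These genes lie as divergent pairs, an H2A gene beside an H2B gene or an H3 gene beside an H4 gene, transcribed away from each other from a shared promoter region. Transcription of the core genes is largely confined to late G1 and S phase, when DNA is copied. It is held down outside that window by the HIR repressor at most, not all, of these pairs, and driven by the activators Spt10, Spt21 and SBF. HHO1 encodes the linker histone H1, which binds DNA between nucleosomes. HTZ1 encodes H2A.Z, a variant of H2A placed mainly in nucleosomes next to promoters.

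Each culture was hybridised on 1 array of 2 colours against a pool of RNA from the 3 cultures without ethanol. The log2 ratio of culture to pool is given throughout, so that 1 unit is a 2-fold difference and 0 means equal signal. On the array of culture 1 of either group the dyes were swapped, and those values were multiplied by −1. No label states the direction of the deposited ratios. They were read as red to green, the usual order, and every sign would be opposite otherwise. Changes are 6.5% minus 0% ethanol, with the SE of limma, a linear model fitted over all 6345 features with the dye orientation as a term (n = 3 arrays per group). A gene was called when its p-value, adjusted over all features by the Benjamini-Hochberg method, lay below 0.05. Dye orientation mattered on these arrays, its term being called for 34.0% of features. After the sign change the swapped 6.5% array correlated at r = −0.06 and −0.10 across features with 6.5% cultures 2 and 3. Those were at 0.85 with each other. The swapped 0% array was at −0.39 and −0.45 with 0% cultures 2 and 3, which were at 0.67 with each other. The swapped array of either group thus did not follow the other arrays of its group. The ratios also drifted along the probe number, differently on each array, and the values with this trend removed are given beside those as deposited where they bear on a call. With the trend removed the correlations of the swapped array with its group were 0.08 and 0.03 in 6.5% and −0.25 and −0.30 in 0% ethanol.

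Transcripts of several histone genes fell with ethanol. The linker histone gene HHO1, the variant gene HTZ1, both H4 genes and the H2A gene HTA2 fell, whereas HTA1, HTB1, HTB2, HHT1 and HHT2 were not called. That is 5 of 10 lower and 0 higher, against 10.4% of all features called lower and 7.69% called higher. At an unadjusted p below 0.05 the counts were also 5 and 0. All shares of features given here are at the adjusted p, so they are no background for counts at an unadjusted p. The share at an unadjusted p was not counted and cannot be smaller, since the adjustment never lowers a p-value. The median change of the 10 genes was −0.91, against 0.04 over all features, and 9 of the 10 changes were negative. With the trend removed 5 of 10 were also lower, against 7.31% of features, but they were HHO1, HHF1, HTA2, HHT1 and HTB2. HHO1, HHF1 and HTA2 were thus called in both. In 6 genes, the 5 called and HHT1, every ethanol array lay below every 0% array, which held for 14.0% of all features. Cultures are bulk samples, so fewer cells at the stage that expresses histone genes and less histone RNA per cell cannot be told apart.

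The calls hung on single arrays and on the model. Without the dye term limma called none of the 10 genes, against 0.646% of features called lower, and without the swapped arrays 5 of 10 against 10.8%. In the fit without the dye term 4 of the 10 had an unadjusted p below 0.05, a threshold for which no share of all features is given. Against the pool alone, on 1 residual degree of freedom, 6 of 10 were called lower and HHT2 higher, when 25.2% and 25.1% of all features were called. That fit holds the ethanol arrays alone, and its dye term takes up the swapped one. Its values are thus the mean of 6.5% cultures 2 and 3, in which a dye effect is not cancelled. HHT2 was at 0.70 there and at 0.57 over all 3 ethanol arrays, and HHF2 at −0.56 and −0.86. Without 6.5% culture 2 or without 6.5% culture 3 limma called none of the 10 genes, when 0.00% and 0.426% of all features were called lower. In either fit 5 of the 10 had an unadjusted p below 0.05, again with no share of all features given for that threshold. HHO1 alone was called without 0% culture 2 (against 4.48% of features), and HHO1 and HHF2 without 0% culture 3 (against 6.98%). With the culture number as a replicate block, HHO1 was the one gene called, against 5.63% of features. This block contains the dye orientation, since culture 1 of either group is the swapped array, and leaves 2 residual degrees of freedom. The median of the family was −0.54 after quantile normalization and −0.49 after scaling the arrays to equal spread, with HHO1 as the one call (against 4.87% and 3.20% of features), and there HTA1 and HTB1 turned to values between 0.02 and 0.11.

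**Figure D1:**
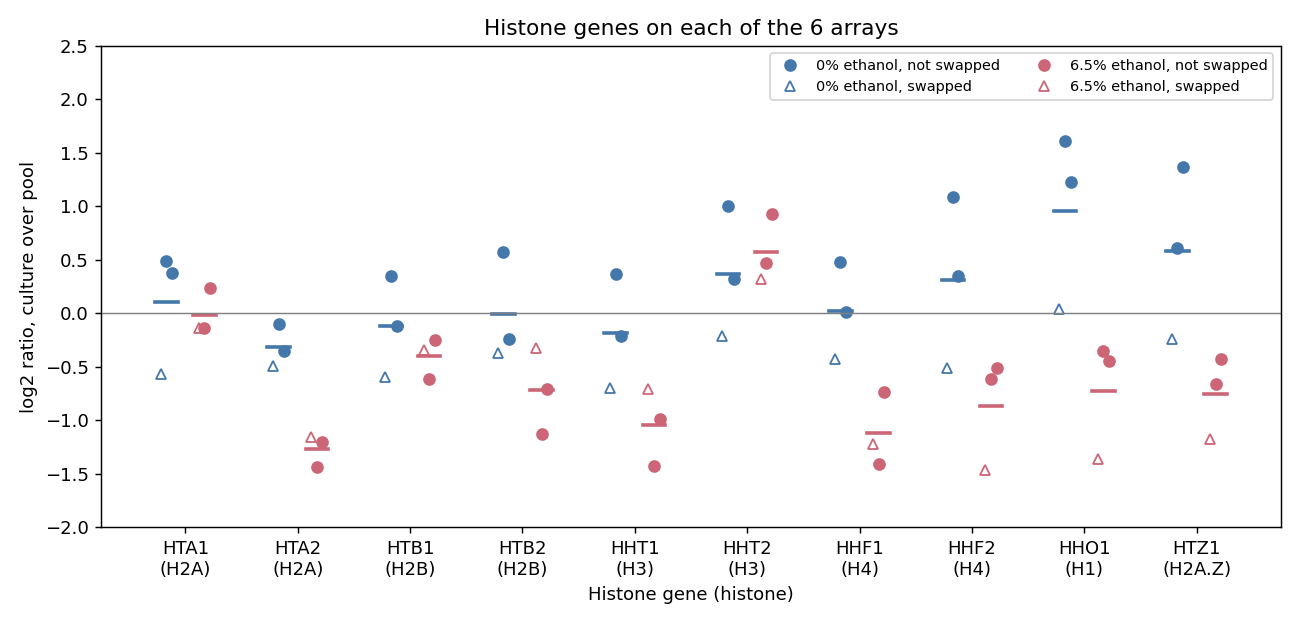
The log2 ratio of culture over pool (vertical axis) is plotted for each histone gene (horizontal axis) on each of the 6 arrays, blue for 0% and red for 6.5% ethanol, with open triangles for dye-swapped arrays and bars for the mean of the 3 arrays of a group. HTA2, HHF1, HHO1 and HTZ1 have their 3 ethanol arrays below the 0% arrays by at least 0.19, while the groups of HTA1, HTB1, HTB2 and HHT2 overlap.

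Of the H2A genes HTA2 was called and HTA1 was not, and the test of their difference is given with the pairs of copies. HTA2, on chromosome II, read −0.49, −0.10 and −0.36 on the arrays of 0% cultures 1 to 3 and −1.15, −1.44 and −1.20 on those of 6.5% cultures 1 to 3. All ethanol arrays were thus low and close together, with an SD of 0.15 against 0.20 without ethanol. HTA2 fell by 0.95 ± 0.26 or 1.93-fold (95% interval −1.56 to −0.34, limma adjusted p = 0.0471). The replicate block left the size as it was with an adjusted p of 0.0947, and with the trend removed the change was −1.46 (adjusted p = 0.0164). HTA1, on chromosome IV, read −0.56, 0.49 and 0.38 without and −0.14, −0.14 and 0.23 with ethanol. Its groups overlapped, and its change was −0.12 ± 0.29 (95% interval −0.80 to 0.57, limma adjusted p = 0.804). The dye orientations disagreed on HTA1, with a change of 0.42 between the swapped arrays and −0.39 between the others.

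Neither H2B gene was called as deposited. HTB2, which shares its promoter region with HTA2, read −0.37, 0.57 and −0.24 without and −0.32, −1.13 and −0.71 with ethanol. The swapped ethanol array lay within the range of the 0% arrays, and the other ethanol arrays were lower than all of them. The change of HTB2 was −0.71 ± 0.37 (95% interval −1.59 to 0.17, limma adjusted p = 0.219), and with the trend removed it was −1.22 and passed (adjusted p = 0.0477). HTB1, the partner of HTA1, read −0.60, 0.35 and −0.12 without and −0.34, −0.61 and −0.25 with ethanol. These values overlapped, and the change was −0.28 ± 0.30 (95% interval −1.003 to 0.442, limma adjusted p = 0.549).

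Neither H3 gene was called as deposited. HHT1, on chromosome II, read −0.70, 0.36 and −0.21 without and −0.71, −1.43 and −0.99 with ethanol. Its groups did not overlap, but only by 0.011, between both swapped arrays, where the change was −0.01, against −1.29 on the others. The change was −0.86 ± 0.36 over all arrays (95% interval −1.73 to 0.00, limma adjusted p = 0.143) and −1.35 with the trend removed, when it was called (adjusted p = 0.0316). HHT2, on chromosome XIV, read −0.21, 1.00 and 0.32 without and 0.32, 0.47 and 0.93 with ethanol. It was the one histone gene whose mean was higher with ethanol, by 0.20 ± 0.31 (95% interval −0.53 to 0.93, limma adjusted p = 0.681), and its ethanol arrays all lay above the pool. With the trend removed HHT2 was at 0.52 and still did not pass (adjusted p = 0.298).

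Both H4 genes fell as deposited, and HHF1 alone of them was called with the trend removed. HHF1, the divergent partner of HHT1, read −0.43, 0.48 and 0.01 without and −1.23, −1.41 and −0.74 with ethanol. Every ethanol array was low in either dye orientation, with a change of −0.80 between the swapped arrays and −1.32 between the others. HHF1 fell by 1.15 ± 0.31 or 2.21-fold (95% interval −1.88 to −0.41, limma adjusted p = 0.0467, or 0.0885 with the replicate block), and the change was −1.64 with the trend removed (adjusted p = 0.0176). HHF2, the partner of HHT2, read −0.51, 1.09 and 0.35 without and −1.47, −0.61 and −0.52 with ethanol. The groups were apart by only 0.0073, between the swapped 0% array and 6.5% culture 3, and its dye term was itself called at −1.06 (adjusted p = 0.0381). HHF2 fell by 1.17 ± 0.29 or 2.26-fold (95% interval −1.86 to −0.48, limma adjusted p = 0.0362, or 0.0676 with the replicate block). Its call was lost with the trend removed (−0.86, adjusted p = 0.0935), and against the pool alone it was at −0.56 (adjusted p = 0.0376).

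As deposited, the linker histone gene had the lowest change of the family, but HHF1, HTA2 and HHT1 were lower with the trend removed. HHO1 read 0.04, 1.61 and 1.23 without and −1.37, −0.35 and −0.45 with ethanol. The groups were well apart, though the arrays of 0% cultures 2 and 3 stood far above a pool that held RNA of these same cultures. HHO1 fell by 1.68 ± 0.26 or 3.20-fold (95% interval −2.29 to −1.06, limma adjusted p = 0.0116). Its change was −1.40 between the swapped arrays and −1.82 between the others, and 3.51% of all features had a lower change. With the replicate block (adjusted p = 0.0322) and with the trend removed (−1.25, adjusted p = 0.0269) HHO1 was still called. Against the pool alone, leaving out the 0% arrays, HHO1 was at −0.40 (adjusted p = 0.0929). That value is the mean of ethanol cultures 2 and 3, in which a dye effect is not cancelled. The dye term of HHO1 was itself called at −1.17 (limma adjusted p = 0.0199). All other histone genes but HTA1 and HHT2 were lower than HHO1 in the fit against the pool. Over all ethanol arrays HHO1 was at −0.722, and HTB1 (−0.402) and HTB2 (−0.721) were then not lower either.

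The H2A.Z gene HTZ1 read −0.24, 0.61 and 1.36 without and −1.18, −0.66 and −0.43 with ethanol. All ethanol arrays lay below the pool and below the 0% arrays, of which cultures 2 and 3 were high. HTZ1 fell by 1.33 ± 0.31 or 2.52-fold (95% interval −2.07 to −0.60, limma adjusted p = 0.0305, or 0.0516 with the replicate block). This call too was lost with the trend removed (−0.98, adjusted p = 0.0960), and against the pool alone HTZ1 was at −0.54 (adjusted p = 0.0468).

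Ordered by change as deposited, the genes ran from HHO1 through HTZ1, HHF2, HHF1, HTA2, HHT1, HTB2, HTB1 and HTA1 to HHT2. Of the 9 steps from one gene to the next in this order, 3 were larger than the SE of either gene (from HHO1 to HTZ1, HTB2 to HTB1 and HTA1 to HHT2), and none was larger than the sum of both SEs. The order with the trend removed was HHF1, HTA2, HHT1, HHO1, HTB2, HTZ1, HHF2, HTB1, HTA1 and HHT2.

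**Figure D2:**
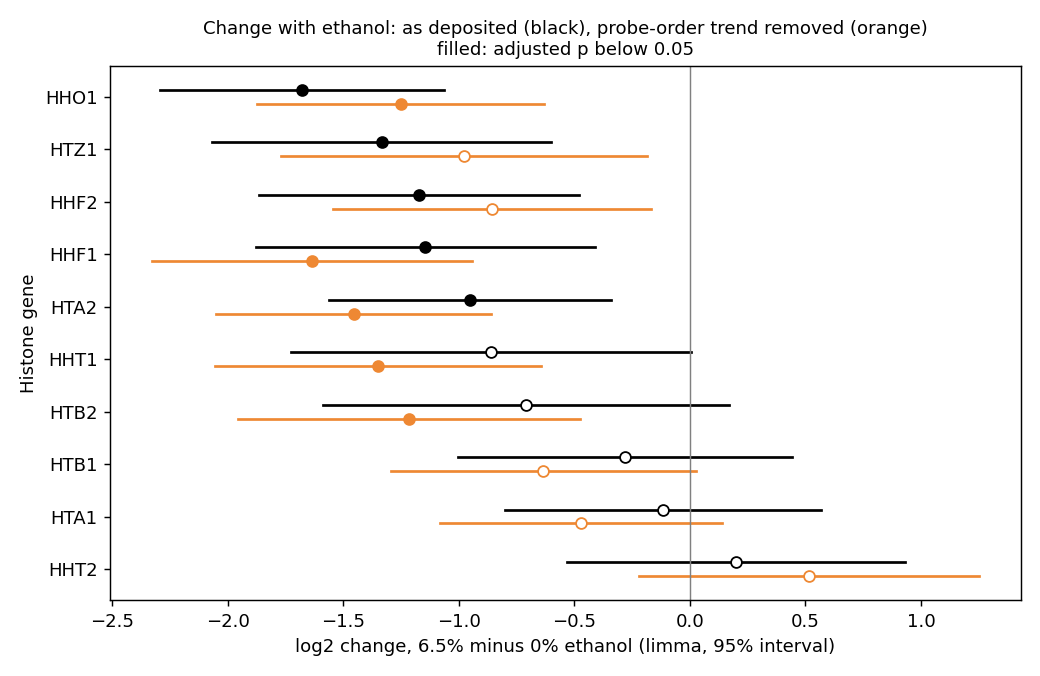
The log2 change from 0% to 6.5% ethanol (horizontal axis, with 95% intervals from limma) is drawn for each histone gene (vertical axis) as deposited in black and with the probe-order trend removed in orange, filled where the gene was called. HHO1, HHF1 and HTA2 are filled in both, and HHT2 is at 0.20 and 0.52.

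Because the core histone genes come as copies and as divergent pairs, 8 differences between genes on the same array were compared. An exact permutation test of 3 arrays against 3 cannot give a two-sided p below 0.10, so none of these can pass on its own, and p-values adjusted over the 8 are given. Probe sequences were not used here, so signal shared between copies cannot be told apart from equal expression.

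In 3 of the 4 pairs of copies, and in 4 of 4 with the trend removed, the copy on chromosome II had the lower change. These copies are the divergent partners HTA2 and HTB2 (probes 111 and 110) and HHT1 and HHF1 (probes 240 and 239). They are thus not 4 separate positions. With the trend removed the exact permutation p was 0.10 (adjusted p = 0.20) for each pair of copies but that of HHF1. HTA2 minus HTA1 was 0.07, −0.59 and −0.74 without and −1.01, −1.30 and −1.44 with ethanol. The groups did not overlap, and the difference moved by −0.83 (exact permutation p = 0.10, adjusted p = 0.267). HHT1 minus HHT2 was steady without ethanol at −0.55 ± 0.07 (SD, n = 3) and read −1.03, −1.90 and −1.92 with ethanol, a move of −1.06 (exact permutation p = 0.10, adjusted p = 0.267). The size of this move rested on the processing, with −1.87 once the trend was removed, −0.71 after quantile normalization and −0.64 after scaling to equal spread. For HTB2 minus HTB1 the groups overlapped, with a move of −0.43 (exact permutation p = 0.20, adjusted p = 0.40). For HHF1 minus HHF2 the move was 0.03 (exact permutation p = 1), but −0.78 with the trend removed, when it had an exact permutation p of 0.50. The probes of these copies have distant numbers, so their differences carry the trend.

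Divergent partners had consecutive probe numbers, so the trend nearly cancels in their difference. HHT2 minus HHF2 was 0.30, −0.09 and −0.02 without and 1.79, 1.08 and 1.45 with ethanol. Relative to the pool, the H3 gene of this pair thus read more than 2-fold above the H4 gene on every ethanol array and near it on every 0% array. The difference moved by 1.37, as deposited and with the trend removed alike (exact permutation p = 0.10, adjusted p = 0.267). In a limma fit over the differences of all 6263 pairs of consecutive probes, chosen after the values were seen, it was 1.37 ± 0.34 (95% interval 0.56 to 2.18, adjusted p = 0.0484, or 0.0997 with the replicate block), in a table where 10.9% of differences were called. A larger absolute move was found for 20.8% of the consecutive pairs. The other divergent pairs moved less. HHT1 minus HHF1 moved by 0.28 (95% interval −0.57 to 1.14), HTA1 minus HTB1 by 0.16 (−0.64 to 0.97) and HTA2 minus HTB2 by −0.24 (−1.13 to 0.65), with adjusted p-values from that limma fit of 0.640, 0.785 and 0.705.

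**Figure D3:**
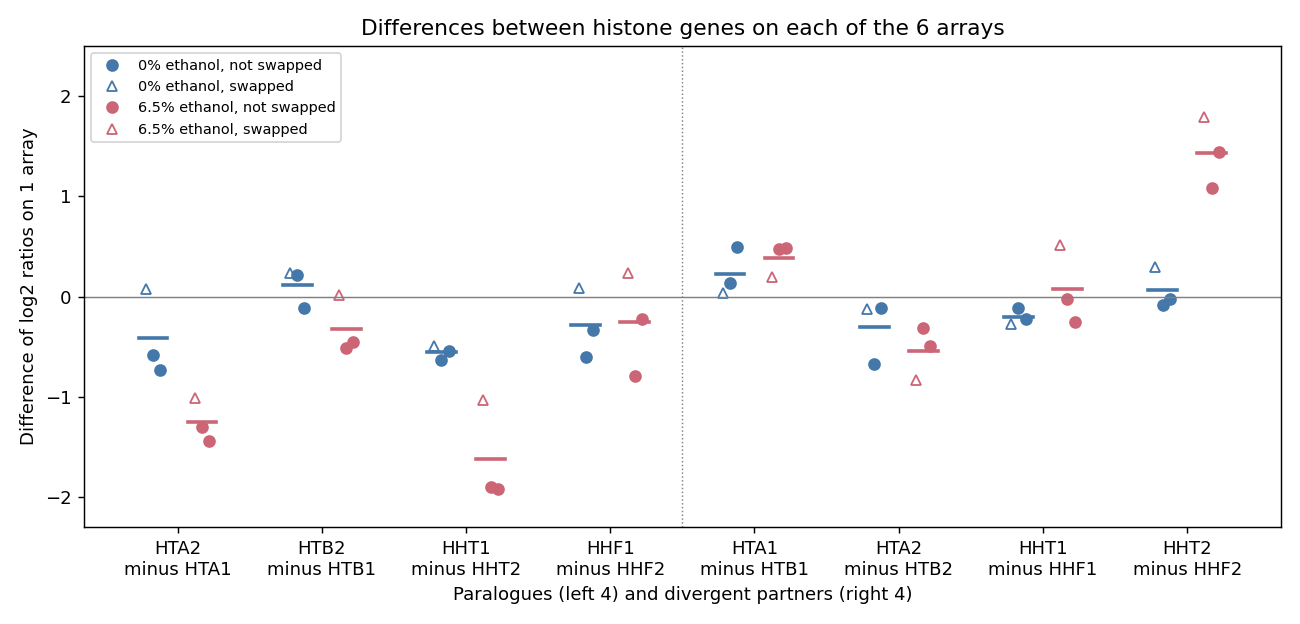
The difference between the log2 ratios of a pair of histone genes on the same array (vertical axis) is plotted for the 4 pairs of paralogues and the 4 divergent pairs (horizontal axis), with colours, triangles and bars as for the single genes. HHT2 minus HHF2 lies between 1.08 and 1.79 with ethanol and between −0.09 and 0.30 without, and HHT1 minus HHT2 separates the groups in the other direction.

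The genes on either side of the histone genes were taken from the RefSeq gene table of assembly R64. Of these 12 neighbours 4 fell and 1 rose, beside 10.4% of all features lower and 7.69% higher, with a median change of −0.34 against 0.04 over all features. With the trend removed 4 were lower, against 7.31% of features, and 0 higher. Beside HHO1 both neighbours fell, with NAN1, which makes a protein of small-subunit ribosome assembly, at −1.86 ± 0.38 and TBF1, a telomere- and promoter-binding factor, at −1.56 ± 0.43 (limma adjusted p = 0.0214 and 0.0497). TBF1 read 2.61 on the array of 0% culture 2 and −0.35 on that of 0% culture 1, and its call was lost with the trend removed (adjusted p = 0.112) and with the replicate block (0.0642). PLB3, a phospholipase B gene beside HTZ1, fell by 1.69 ± 0.25 (limma adjusted p = 0.0101), while HRD1 on the other side, a ubiquitin ligase of the endoplasmic reticulum, did not pass at −0.72 ± 0.25 (adjusted p = 0.0885). Changes as low as those of HHO1 and HTZ1 were thus also read at adjoining genes with adjoining probe numbers.

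Differences between the core histone genes and their neighbours were not tested. ADK1, adenylate kinase, beside HTA1 fell by 1.24 ± 0.26 (limma adjusted p = 0.0229), whereas HTA1 did not pass the test. FLR1, a multidrug transporter gene beside HHF1, rose by 1.30 ± 0.30 (limma adjusted p = 0.0292, or 0.0733 with the trend removed and 0.0623 with the replicate block), where HHF1 was at −1.15. The neighbours of the HHT2 and HHF2 pair, SIW14, a phosphatase gene, and KTR5, a mannosyltransferase gene, were at −0.06 ± 0.38 and 0.18 ± 0.30. IPP1, inorganic pyrophosphatase, beside HHT1 was at 0.08 ± 0.25, and ECM15 beside HTB2 at 0.35 ± 0.29. None of these last 4 was called. CRF1, a corepressor of ribosomal protein genes, beside HTB1 was at 1.09 ± 0.34 (limma adjusted p = 0.0706). UTP20, a ribosome assembly factor, beside HTA2 read −0.62 ± 0.26 and passed once the trend was removed (−1.13, adjusted p = 0.0335).

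**Figure D4:**
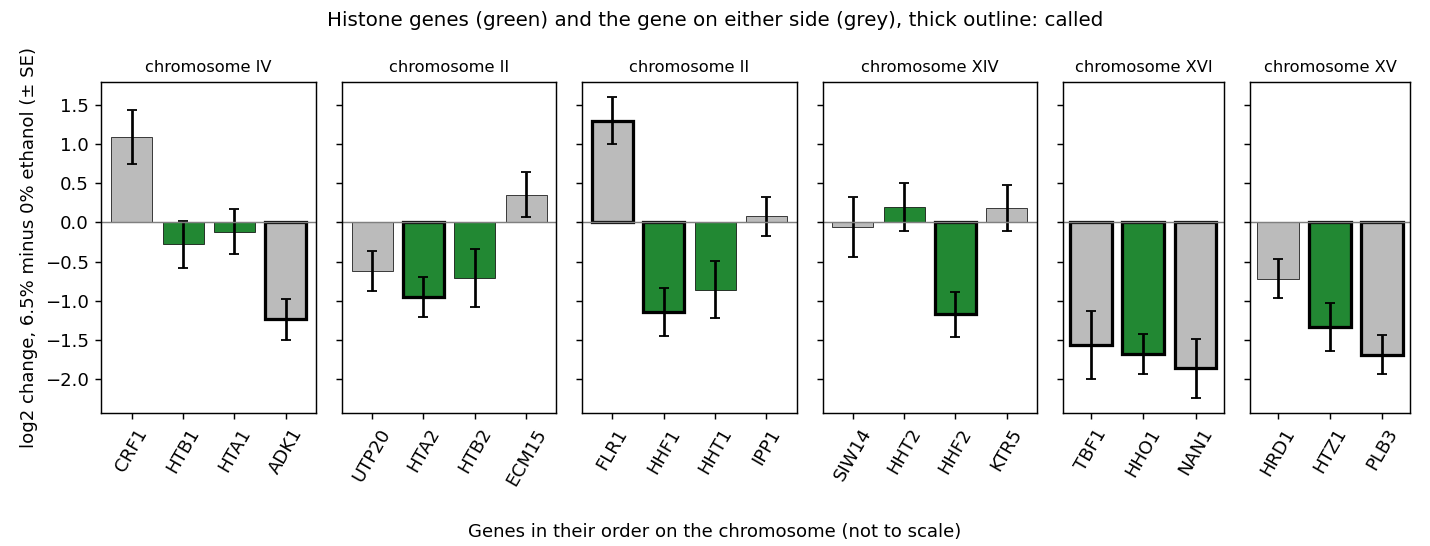
The log2 change from 0% to 6.5% ethanol with its SE (vertical axis) is drawn for the histone genes in green and the gene on either side in grey, in their order on the chromosome and not to scale (horizontal axis), with a thick outline for called genes. HHO1 stands between 2 genes that also fell, HHF1 beside FLR1, which rose, and HHF2 beside HHT2, which was not called.

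The factors that act on histone genes and histones were read from lists drawn up with earlier results of these data known. Of 12 regulators of histone transcription 0 were called by limma, against 10.4% of all features called lower and 7.69% higher. At an unadjusted p below 0.05 the count was also 0, and the median change of the 12 regulators was 0.16. Among them SPT10 was at 0.08 ± 0.32, SWI4, the DNA-binding subunit of SBF, at 0.37 ± 0.28, HIR1 of the repressor at 0.09 ± 0.30 and ASF1, a histone chaperone, at 0.46 ± 0.27. SPT21 had the highest change of the list, 1.27 ± 0.72 (limma adjusted p = 0.253), with 0% arrays as far apart as −1.69 and 2.17 and ethanol arrays between 1.10 and 1.62.

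Of 18 histone chaperones, importers and related chromatin proteins 2 fell and 1 rose, shares close to the 10.4% and 7.69% of all features, with a median of −0.35. At an unadjusted p below 0.05, 7 were lower and 1 higher, with no share of all features at that threshold to set beside them. That share cannot be smaller than the one at the adjusted p, so these counts alone show no excess. KAP123, an importin that carries histones H3 and H4 and ribosomal proteins into the nucleus, fell by 1.83 ± 0.33 (limma adjusted p = 0.0158). The nearly identical DNA-bending proteins NHP6A and NHP6B moved in opposite directions, NHP6A by −1.18 ± 0.27 and NHP6B by 1.37 ± 0.25 (limma adjusted p = 0.0293 and 0.0159). With the trend removed neither passed, at −0.75 and 0.89, and NHP6A lost its call with the replicate block (adjusted p = 0.0635).

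Of 24 subunits of SWR1, which exchanges H2A for H2A.Z, and of the related remodeller INO80, 3 fell and 2 rose, again close to the shares over all features (10.4% and 7.69%). The shared subunits ARP4 and RVB2 fell, with changes of −1.10 ± 0.28 and −1.38 ± 0.29. TAF14, a subunit of INO80 and of several transcription complexes, fell by 1.66 ± 0.38, while NHP10 of INO80 rose by 1.36 ± 0.25. The probe of TAF14, number 5957, follows those of HHO1 (5955) and TBF1 (5956). YAF9, a subunit of SWR1 and of the NuA4 acetyltransferase, rose by 0.93 ± 0.24 (limma adjusted p = 0.0396). ARP4 (−1.06, adjusted p = 0.0472) and YAF9 (1.25, adjusted p = 0.0222) kept their calls with the trend removed, but both lost them with the replicate block (0.0704 and 0.0861). RVB2, TAF14 and NHP10 lost their calls with the trend removed (limma adjusted p = 0.0707, 0.0654 and 0.0678) and kept them with the replicate block (0.0464, 0.0420 and 0.0441). The catalytic subunit gene SWR1 read 0.81 ± 0.35 without a call (limma adjusted p = 0.148). The median of the list was 0.02, where HTZ1 itself was at −1.33.

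Calls among genes of enzymes that modify histones are to be read beside the 10.4% of all features lower and 7.69% higher. Of 25 acetylation and deacetylation genes 2 fell and 0 rose, ELP3, an acetyltransferase of the Elongator complex that also acts on transfer RNA, at −1.53 ± 0.27 and the deacetylase gene HOS3 at −0.97 ± 0.27, and the median was 0.005. Of 13 genes of histone methylation and ubiquitylation 2 fell and 0 rose, UBP10, which removes ubiquitin from H2B, at −1.65 ± 0.27 and LGE1, a cofactor of H2B ubiquitylation, at −0.95 ± 0.24, with a median of 0.18. ELP3 and UBP10 kept their calls with the trend removed and with the replicate block, and HOS3 and LGE1 lost theirs in both. ELP3, HOS3, LGE1, TAF14, RVB2 and NHP6A all lie on chromosome XVI like HHO1, with probe numbers from 5882 (LGE1) to 6169 (NHP6A). They read between 1.13 and 2.36 on 0% culture 2 and between −0.48 and −0.23 on 0% culture 1. KAP123, ARP4 and UBP10, the other lower calls of the chromatin lists, lie on other chromosomes. Whether the chromosome XVI changes are separate was not tested. CSE4, the centromeric H3 variant, read −0.32, 1.05 and 0.13 without and −0.48, 0.62 and 0.50 with ethanol, and was at −0.07 ± 0.31 (95% interval −0.81 to 0.66).

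Among 23 measured genes expressed around G1 and S phase, 5 fell and 0 rose, against 10.4% and 7.69% of all features called. At an unadjusted p below 0.05, 8 were lower and 2 higher, with no share of all features given for that threshold. Since that share cannot be smaller than the one at the adjusted p, these counts alone show no excess. The median of the 23 genes was −0.44, and with the trend removed 3 were lower, against 7.31% of features. CLN2, a G1 cyclin, fell by 2.38 ± 0.32 (limma adjusted p = 0.00857), from 0.49, 1.71 and 0.91 without to −1.71, −0.90 and −1.43 with ethanol. The DNA polymerase genes POL2 and POL1 were at −1.84 ± 0.29 and −1.24 ± 0.31, RAD27, a flap nuclease of DNA replication, at −1.41 ± 0.26, and CDC21, thymidylate synthase, at −1.23 ± 0.27, all called. POL1 and CDC21 lost their calls with the trend removed (adjusted p = 0.0975 and 0.0748) and with the replicate block (0.0754 and 0.0598). CLB5, an S-phase cyclin, was at −0.44 ± 0.40, and RNR1, the large subunit of ribonucleotide reductase, at −0.63 ± 0.52, and neither was called. These genes are given beside the histone genes because both are tied to the cell cycle, and their part in the histone values was not tested.

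The mean profile of the 8 core histone genes over the 6 arrays ran from 0.53 on 0% culture 2 to −0.79 on 6.5% culture 2. Among 5159 other genes with a standard name, those with the smallest root mean square difference from it were GLT1, glutamate synthase, at 0.16 log2 units, RPS10B at 0.17 and RPL38 at 0.18, both ribosomal protein genes, MED11 of the Mediator complex at 0.18 and NTF2, a nuclear transport factor, at 0.19. None of the 5 was called, with changes between −0.65 and −0.48. These genes were picked for nearness on the same 6 arrays, so their changes had to lie near that of the mean profile. Within the family HTB1 was nearest to this mean profile, at 0.18, and HHT2 farthest, at 0.88. Of the other genes 2599 were nearer to it than HHT2, and 3 were nearer than HTB1. The 8 core genes are part of this mean and the other genes are not, so the nearness of a core gene is partly built in.

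**Figure D5:**
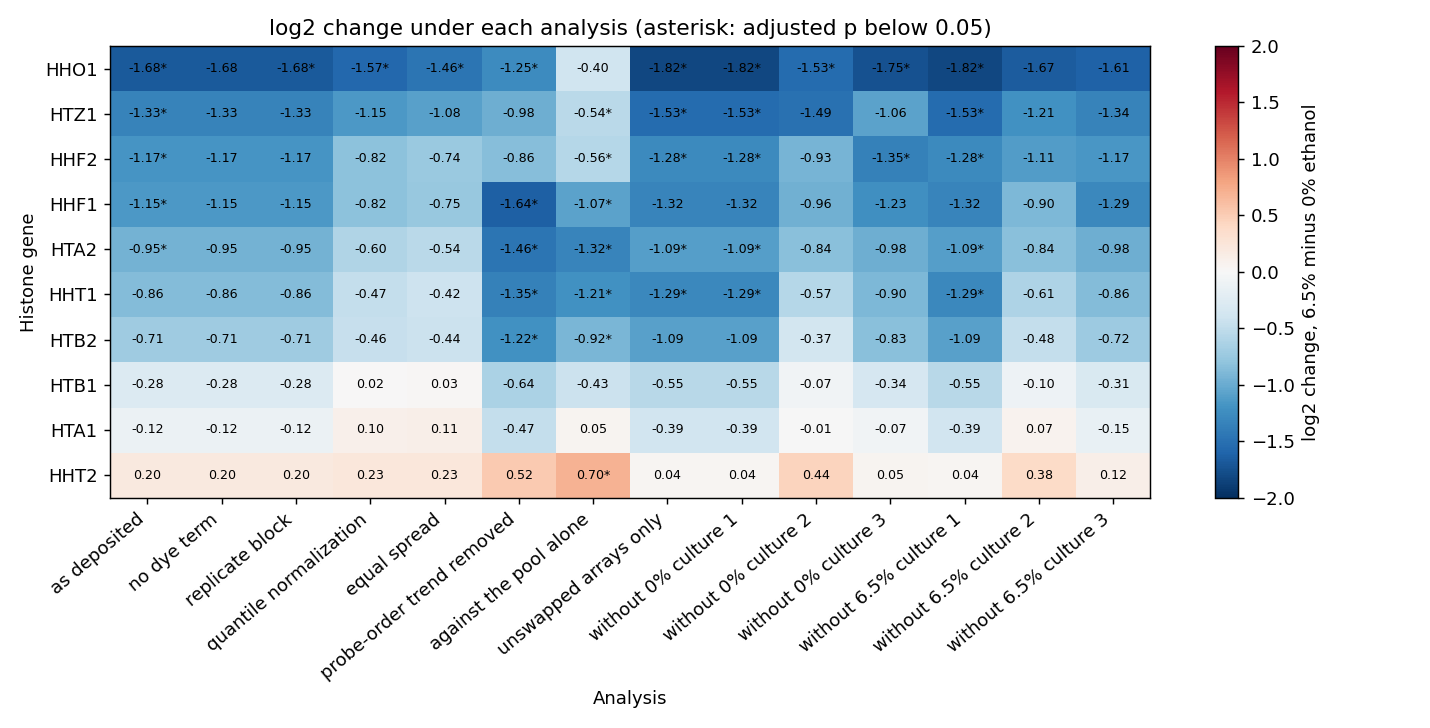
Each cell gives the log2 change of a histone gene (rows) under 1 analysis (columns), coloured from blue (lower with ethanol) to red (higher), with an asterisk where the adjusted p lay below 0.05. The 3 columns without the swapped arrays or without 1 of them hold the same fitted values, so there are 12 distinct analyses, and HHO1 has an asterisk in 8 of these and HTA1 and HTB1 in none.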

How the data were processed

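Extraction used equal cell numbers and a DNase step, and cDNA carried AlexaFluor 647 (red) or AlexaFluor 555 (green), per the labels' protocols. Log2 ratios of 6368 probes on the 6 arrays were deposited as 1 table. How the authors corrected background and normalized is not stated in the labels, intensities were not used here, and so signal over background is unknown and the number of arrays limits the precision. The values were bounded at 6.64 on both sides, the log2 of 100, and no histone gene reached that bound.

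Gene names came from the platform annotation (5673 probes with 1 gene and 695 with none), and all 5673 were found in the RefSeq gene table of assembly R64 and took its symbols. Where a gene had several probes (23 genes) their mean was taken, which left 6345 features, 5650 of them named genes. No filter on low values was possible. The model was limma 3.58.1 in R 4.3.3 (lmFit, eBayes, two-sided) with dye orientation as a term and 3 residual degrees of freedom, checked on simulated data. The probe-order trend was removed by lowess on each array with a span of 0.3. Exact permutation tests were two-sided.

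The histone genes and the gene lists were chosen with earlier results of these data known. The naming rule took the 10 histone genes, CSE4, the gene on either side of each locus, 9 preset factors, up to 4 called genes with the largest change per list, and the 5 genes nearest to the core histone profile. CDC21 and YAF9 fall outside it and were named after their values were seen. A ratio says nothing of the level of one gene against another.

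Same-numbered cultures deviated together from their group means (r = 0.70, 0.48 and 0.43 across features for cultures 1, 2 and 3), so values with the culture number as a replicate block are given where they change a call. Cultures 2 and 3 correlated as well with each other's number (0.51 and 0.42), and their contrast, from which the dye orientation is absent, was at r = −0.04 between the groups.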

Additional observations from a re-analysis of the deposited data

How the results depend on the processing

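The number of calls moved with most choices. Without the dye term 41 features were called lower and 37 higher, with the replicate block 357 and 250, after quantile normalization 309 and 164, after scaling to equal spread 203 and 104, and against the pool alone 1596 and 1590, where as deposited there were 662 and 488. Leaving out 1 array gave 0 to 688 lower and 2 to 565 higher. Of the 10 histone genes 0 were called lower without the dye term (4 at an unadjusted p below 0.05), 1 each with the block, after quantile normalization and after scaling to equal spread, and 0 to 5 with 1 array left out. Their median was −0.54 after quantile normalization, −0.49 after scaling and −1.19 to −0.70 with 1 array left out.

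Without the dye term the changes stayed the same in size, at −0.95 for HTA2, −1.15 for HHF1, −1.17 for HHF2, −1.68 for HHO1 and −1.33 for HTZ1, but none of these was called, and with the block HHO1 alone was. Quantile normalization left HTA2 at −0.60, HHF1 at −0.82, HHF2 at −0.82 and HTZ1 at −1.15 without a call and turned HTA1 to 0.10 and HTB1 to 0.015. Scaling to equal spread gave −0.54, −0.75, −0.74 and −1.08 for the same 4 genes, 0.11 for HTA1 and 0.025 for HTB1. With the trend removed HHF2 (−0.86) and HTZ1 (−0.98) lost their call and HTB2 (−1.22) and HHT1 (−1.35) gained one. Against the pool alone, on 1 residual degree of freedom, HHO1 (−0.40) lost its call, HTB2 (−0.92), HHT1 (−1.21) and HHT2 (0.70) gained one, and HTA1 was at 0.047. Without the swapped arrays HHT1 (−1.29) gained a call and HHF1 (−1.32) lost it. Leaving out either swapped array gives these same fitted values, because the dye term then absorbs the other. The cause of these moves was not tested.

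With 1 array left out HHO1 lay between −1.82 and −1.53 and was called in 3 of 5 distinct fits. HTZ1 lay between −1.53 and −1.06, HHF2 between −1.35 and −0.93, HHF1 between −1.32 and −0.90, HTA2 between −1.09 and −0.84, HHT1 between −1.29 and −0.57, HTB2 between −1.09 and −0.37, HTB1 between −0.55 and −0.07, HTA1 between −0.39 and 0.066 and HHT2 between 0.04 and 0.44. The difference of HHF1 and HHF2 changed sign, at −0.011 after scaling, −0.78 with the trend removed, −0.037 without the swapped arrays and −0.22 to 0.30 with 1 array left out. HHT2 minus HHF2 stayed between 1.20 and 1.55 with 1 array left out, and was at 1.37 with an adjusted p of 0.0484 in the fit over consecutive probes, which was chosen after seeing the data. Each histone gene had 1 probe, so fits by single probe were not run.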
